A study of Homo sapiens with 16 samples.

Results

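The collagen genes outside the type I and type III fibrils and the main type IV pair were examined for what TGF-beta did to their chromatin. These 39 genes, out of 19974 protein-coding genes, were taken by name: every listed chain of the minor fibrillar, network-forming, beaded-filament, anchoring-fibril, fibril-associated (FACIT), transmembrane and multiplexin collagens, with COL26A1 and COL28A1. The cells were H69, a line of human cholangiocytes, the epithelial cells of the bile ducts, that was immortalised with a viral antigen, so results come from 1 line with no stroma around it. Recombinant human TGF-beta at 10 ng/ml or vehicle was given for 16 h, and chromatin immunoprecipitation with sequencing was done for SMAD3, for H3K27ac and for H3K9ac. SMAD3 is the transcription factor that TGF-beta receptors switch on, and both acetylation marks sit on active promoters and enhancers. Each target had 2 TGF-beta and 2 vehicle libraries, numbered 4 and 5 for SMAD3 and 1 and 2 for the marks, and the 4 input samples were not used here. The labels do not say that replicates were separate cultures, so p-values measure only the spread between these libraries.

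Collagens are the triple-helical proteins of the extracellular matrix. Fibrillar chains build banded fibrils, and the minor ones start the fibrils or set their width. FACIT collagens coat those fibrils, type IV collagens form the sheet of basement membranes under epithelia, and type VII collagen ties that sheet to the tissue beneath. TGF-beta is the best-known inducer of collagen genes in fibrosis. Around inflamed bile ducts most fibrillar collagen is laid down by portal fibroblasts and stellate cells, while cholangiocytes make basement membrane of their own.

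The value of a gene was its peak length, the length of genome inside the authors' peaks of 1 library over the gene span with 10 kb on each side (hg38). Since only peaks were given, sequencing depth is unknown and a length carries no counting error. Between 22451 and 34413 peaks were used per SMAD3 library, 82259 to 92714 per H3K27ac library and 54682 to 61297 per H3K9ac library. Changes are log2 of the length plus 500 bp, TGF-beta minus vehicle, after each library was centred on the median gene; before centring, that median was 0.32 higher with TGF-beta in SMAD3, 0.09 higher in H3K27ac and 0.09 lower in H3K9ac. Genes whose mean length reached 500 bp were tested with limma, and a gene passed at a Benjamini-Hochberg adjusted p under 0.05 over all tested genes. The TGF-beta replicate 2 libraries of both marks came from lane 8 and the other mark libraries from lane 7. For a single mark, the value without that library is the value within 1 lane. As a check of the line, 6 of 8 cholangiocyte markers had H3K27ac peaks in all 4 libraries, CFTR was at 0, and their summed H3K27ac length was 61.8 and 60.7 kb with TGF-beta, against 62.7 and 67.0 kb with vehicle. Of other cell types, the hepatocyte genes ALB and TTR and the stellate cell genes DCN and LRAT were at 0 in every H3K27ac library. These zeros do not stand for their whole lists. The stellate cell and fibroblast marker PDGFRB had 16.415 and 14.758 kb of H3K27ac with TGF-beta, against 11.356 and 11.689 kb with vehicle. The hepatocyte marker SERPINA1 had 8.053 and 7.84 kb with TGF-beta, against 6.602 and 7.466 kb with vehicle. THY1, RGS5, PDGFRA and CYP3A4 had H3K27ac peaks in all 4 libraries too. The 7 stellate cell and fibroblast markers summed to 26.6 and 25.7 kb of H3K27ac with TGF-beta, against 19.0 and 19.6 kb with vehicle. The 5 hepatocyte markers summed to 10.4 and 10.2 kb with TGF-beta, against 6.97 and 8.65 kb with vehicle. The 4 endothelial markers, none of them at 0, summed to 23.1 and 22.7 kb with TGF-beta, against 20.3 and 19.9 kb with vehicle. The 4 leukocyte markers, none of them at 0, summed to 11.9 and 12.2 kb with TGF-beta, against 13.7 and 15.3 kb with vehicle. The passage range given for TGF-beta replicate 5 of SMAD3 reaches 1 passage higher than the others. The part of these shifts in the collagen results was not tested. More cells with a peak and more signal per cell cannot be told apart in such libraries.

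The collagen windows together took a larger share of the peak length of each target in the TGF-beta libraries, least so for H3K9ac. Their 36 separate windows span 7.22 Mb, since neighbouring genes share some. SMAD3 peaks covered 43.7 and 38.9 kb of them in the TGF-beta libraries, against 13.8 and 18.5 kb in the vehicle libraries. That was 0.222% and 0.199% of all SMAD3 peak length with TGF-beta, against 0.124% and 0.128% with vehicle, so the share was higher in both TGF-beta libraries than in either vehicle library. H3K27ac covered 184.6 and 185.0 kb with TGF-beta, against 122.5 and 128.7 kb with vehicle. The H3K27ac share of the library was 0.284% and 0.290% with TGF-beta, against 0.224% and 0.218% with vehicle, again without overlap. H3K9ac covered 81.6 and 98.7 kb with TGF-beta, against 95.9 and 80.1 kb with vehicle, and these lengths overlapped. Its share of the library was 0.223% and 0.237% with TGF-beta, against 0.217% and 0.204% with vehicle, which did not overlap.

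Many collagen genes were without peaks. At 0 in all 12 libraries were 7 genes: COL5A3, a type V chain, COL11A1 of cartilage fibrils, the type VI chains COL6A5 and COL6A6, the FACIT chains COL9A1 and COL19A1, and COL25A1, a transmembrane collagen of neurons. Per target, 15 genes had no SMAD3 peak, 10 had no H3K27ac peak and 10 had no H3K9ac peak in any of the 4 libraries. The mean reached 500 bp in 17 genes for SMAD3, 27 for H3K27ac and 24 for H3K9ac. Some of them reached it through 1 treatment alone, so that they had to differ: COL27A1, COL9A2 and COL20A1 in SMAD3 and COL10A1 in H3K27ac through TGF-beta, and COL24A1 in H3K9ac through vehicle. In the plot of peak length by library, these genes show as points near 0 on one side.

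**Figure D1:**
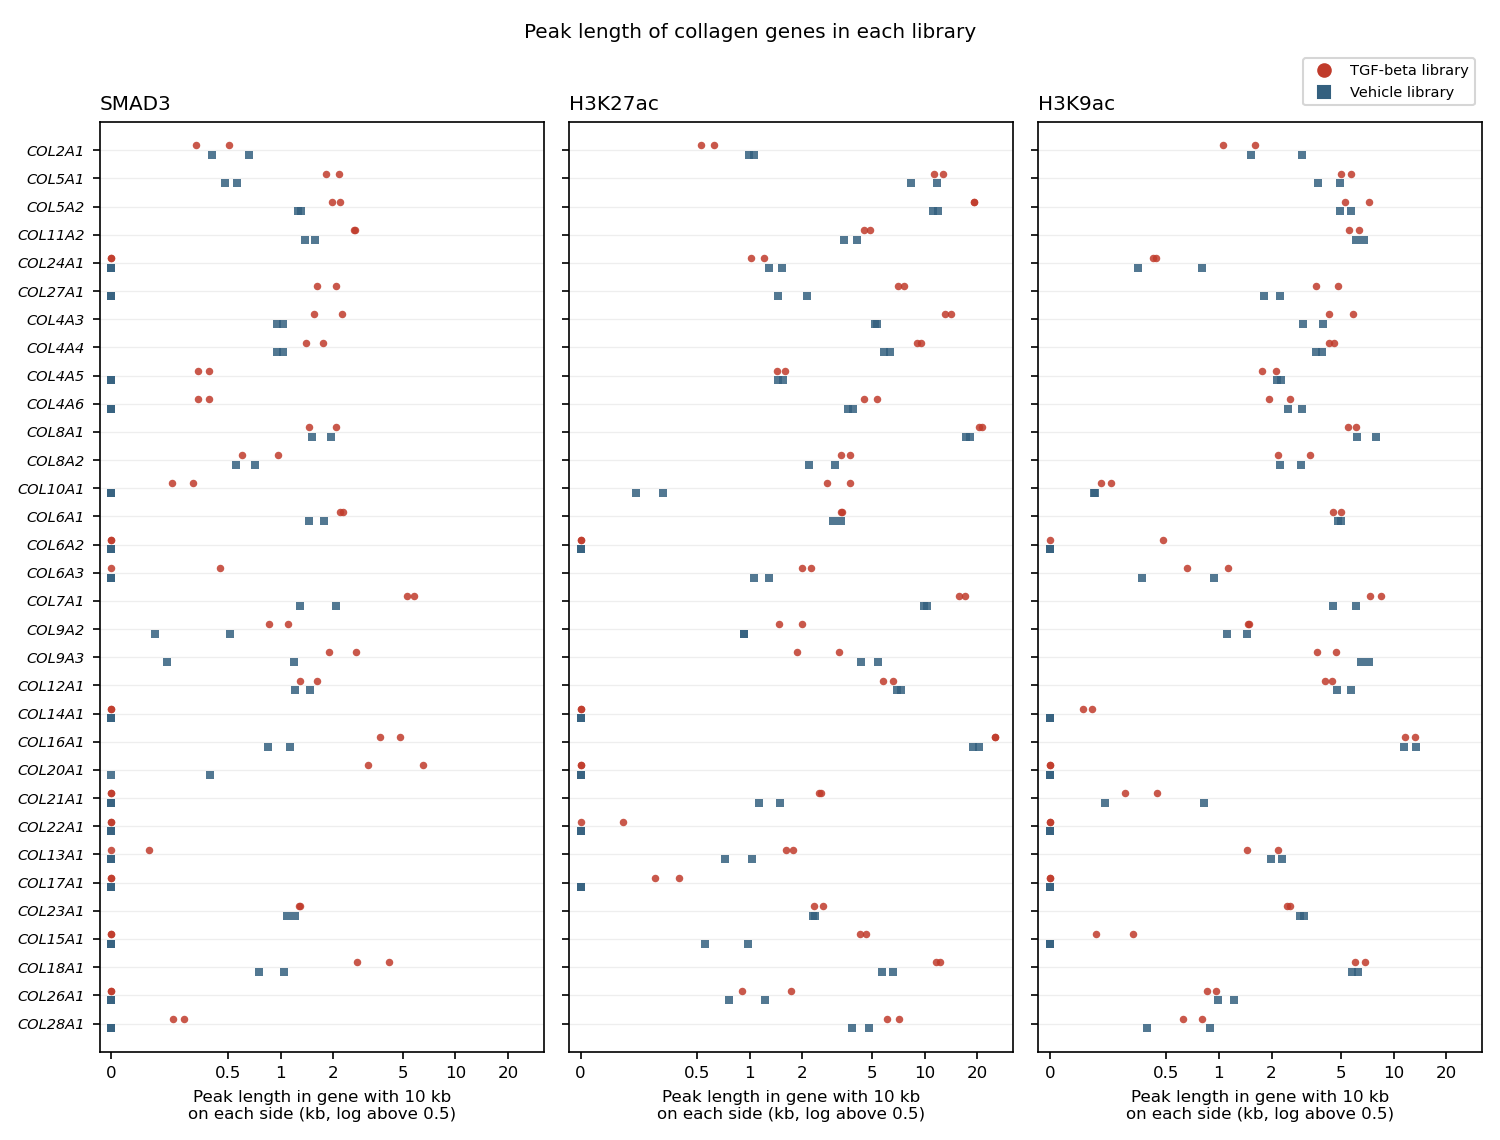
Peak length (kb, linear to 0.5 kb and logarithmic above) of the 32 collagen genes with a peak in at least 1 library, in the span with 10 kb on each side; red circles are the 2 TGF-beta libraries and blue squares the 2 vehicle libraries of each target. COL27A1 has SMAD3 peaks of 2.09 and 1.62 kb with TGF-beta and none with vehicle, and COL15A1 and COL10A1 are set apart in H3K27ac.

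With TGF-beta, SMAD3 rose in 6 of the 17 tested genes, beside 11.2% of all tested genes, and fell in 0, beside 1.68% of all tested genes. At an unadjusted p under 0.05 there were 10. Both TGF-beta libraries were above both vehicle libraries in 14 of the 17, where 68.9% of all genes were, and below in 0, where 1.81% were. The median SMAD3 change of the 17 was 0.36, against -0.03 over all tested genes. These SMAD3 values include COL27A1, COL9A2 and COL20A1, which were tested only through TGF-beta and had to differ. COL27A1 and COL20A1 are among the 6 that rose. H3K27ac rose in 14 of 27 genes, beside 14.8% of all tested genes, and fell in 4, beside 11.7%. Its TGF-beta libraries were above both vehicle libraries in 18 of the 27 (40.7% of all genes) and below in 4 (20.9%), with a median change of 0.29, against -0.03 over all genes. COL10A1, among the 14 that rose in H3K27ac, was likewise tested only through TGF-beta. H3K9ac rose in 4 of 24 genes, beside 4.25% of all tested genes, and fell in 1, beside 5.22%. Its TGF-beta libraries were above in 6 (9.40% of all genes) and below in 6 (40.9%), and the median change was 0.07, against 0.00 over all genes. COL7A1 passed upwards in all 3 targets. COL27A1 did so in both marks, and in SMAD3 it was tested only because of its TGF-beta libraries. The 4 falls in H3K27ac were 2 without TGF-beta replicate 1 or vehicle replicate 1, 3 without TGF-beta replicate 2 and 1 without vehicle replicate 2, and 1 with 2.5 kb or with 50 kb on each side. In H3K9ac 3 rose and 3 fell without vehicle replicate 2. The count of falls in SMAD3 was 1 with 50 kb on each side or with every library cut to an equal number of peaks. It was also 1 with no filter, in a fit that gave COL5A1, COL16A1 and COL20A1 the same SE.

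**Figure D2:**
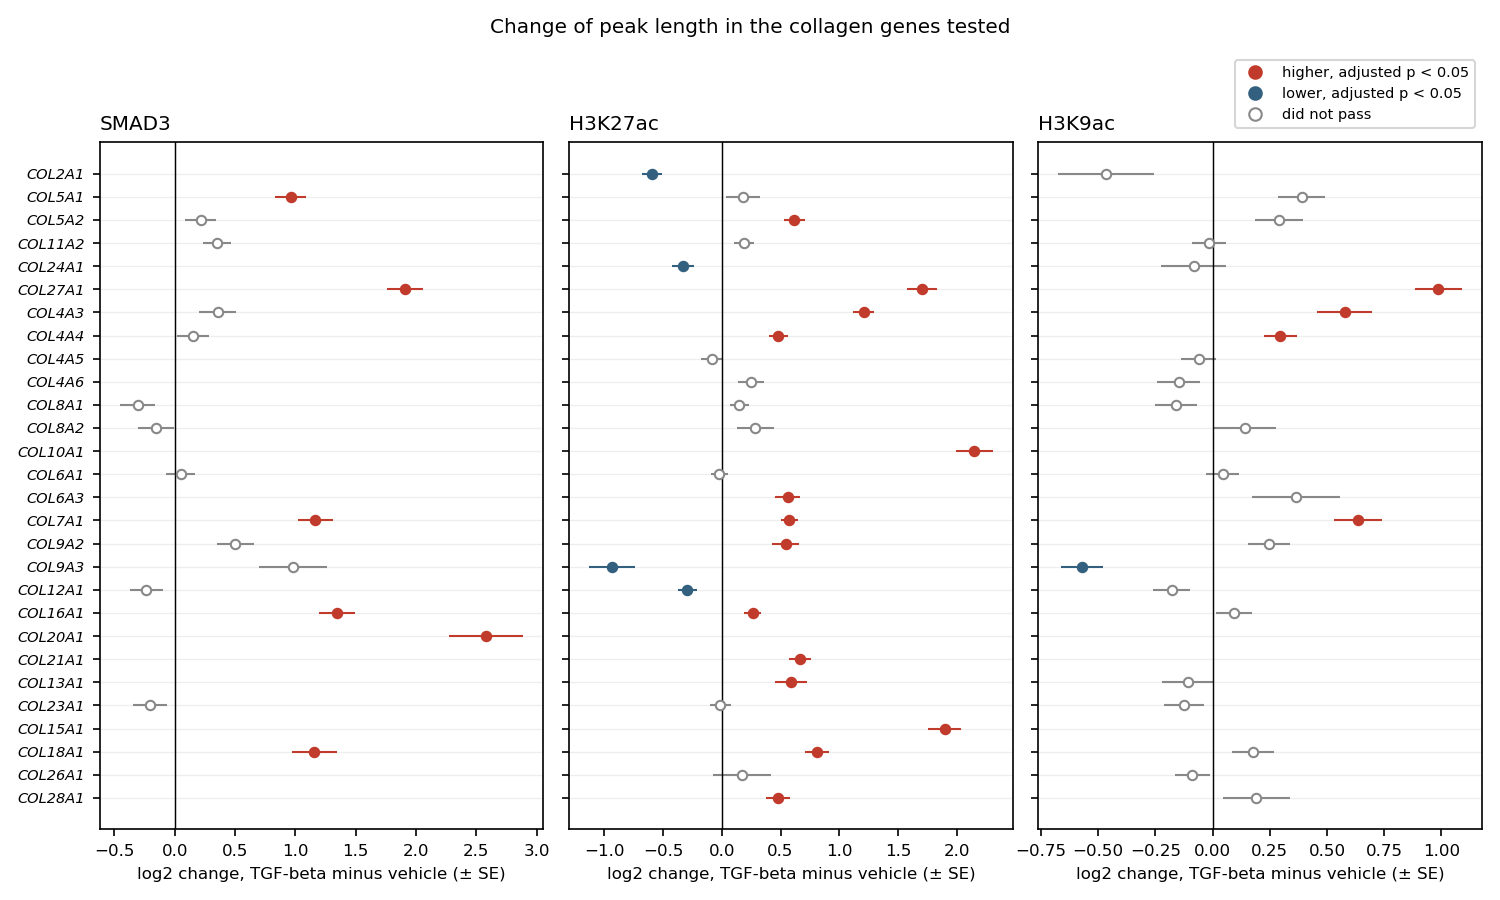
Log2 change of peak length plus 500 bp, TGF-beta minus vehicle, with SE from limma, for each collagen gene tested in at least 1 target; filled red points passed upwards, filled blue points passed downwards and open points did not pass an adjusted p of 0.05. SMAD3 points that passed lie between 0.96 (COL5A1) and 2.58 (COL20A1), and the H3K27ac points reach 2.15 (COL10A1) and -0.93 (COL9A3).

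Next, peaks from all 4 libraries of each target were merged where they shared at least 1 bp, and a region was counted as gained when both TGF-beta libraries and neither vehicle library called it, and as lost in the opposite case. In the collagen windows 21 of 96 SMAD3 regions were gained, 21.9%, beside 13.7% of all SMAD3 regions, and 0 were lost, beside 0.669%. For H3K27ac, 61 of 349 regions were gained, 17.5%, beside 11.97% of all, and 8 were lost, 2.29%, beside 4.72%. For H3K9ac, 18 of 219 were gained, 8.22%, beside 5.15% of all, and 15 were lost, 6.85%, beside 6.15%. With every library cut to an equal number of peaks, 11 SMAD3 regions were gained and 1 was lost.

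Most gained regions lay inside genes, away from their starts, as did most H3K27ac regions of other kinds. A start site was known for 30 of the genes, and a region within 1 kb of it was counted as lying there. Of 14 gained SMAD3 regions at these genes, 2 lay at a start site, 10 elsewhere in the span and 2 in a flank. Of 15 SMAD3 regions called in all 4 libraries, 9 lay at a start site, 0 elsewhere in the span and 6 in a flank. For H3K27ac 1 of 49 gained regions lay at a start site and 39 elsewhere in the span, and for H3K9ac 0 of 14 and 9. Regions called in all 4 libraries lay elsewhere in the span in 60 of 89 cases for H3K27ac and 28 of 60 for H3K9ac, and at a start site in 11 and 17, so lying inside genes was not particular to the gained regions of the marks. Of the 21 gained SMAD3 regions, 14 lay over an H3K27ac region called in all 4 libraries, 1 over a gained H3K27ac region and 6 over none. The 1 with gained H3K27ac was in COL18A1 at chr21:45420182-45421049, with 868 and 260 bp of SMAD3 with TGF-beta and 0 with vehicle, and its H3K9ac was gained too. Of the 6 with none, 5 were near COL20A1 and 1 near COL9A3.

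At start sites, SMAD3 peaks of COL27A1 were called with TGF-beta alone, and those of COL7A1, COL16A1, COL18A1 and COL5A1, and of COL9A2 and COL11A2, which did not pass over the whole window, were among those longer with TGF-beta. The 250 bases before the start are shown for the genes that passed because SMAD3 peaks reached into them; those of COL4A5 are shown because its only SMAD3 region starts there. They are from the RefSeq promoter table (GRCh38.p14), 5′ to 3′ on the strand of the gene, and capitals mark CAGAC or its reverse complement GTCTG, the core of the SMAD-binding element, or GGCGCC, a GC-rich motif that SMAD3 also binds.
COL27A1: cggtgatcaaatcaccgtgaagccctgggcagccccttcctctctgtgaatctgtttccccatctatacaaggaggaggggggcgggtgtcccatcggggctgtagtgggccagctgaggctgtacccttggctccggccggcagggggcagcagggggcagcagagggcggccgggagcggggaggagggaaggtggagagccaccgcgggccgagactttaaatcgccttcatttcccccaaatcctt
COL7A1: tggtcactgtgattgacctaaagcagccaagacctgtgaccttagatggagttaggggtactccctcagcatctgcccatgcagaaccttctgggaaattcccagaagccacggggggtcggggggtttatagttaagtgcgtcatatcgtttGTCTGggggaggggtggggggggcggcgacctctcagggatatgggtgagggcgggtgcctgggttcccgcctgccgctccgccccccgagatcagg
COL16A1: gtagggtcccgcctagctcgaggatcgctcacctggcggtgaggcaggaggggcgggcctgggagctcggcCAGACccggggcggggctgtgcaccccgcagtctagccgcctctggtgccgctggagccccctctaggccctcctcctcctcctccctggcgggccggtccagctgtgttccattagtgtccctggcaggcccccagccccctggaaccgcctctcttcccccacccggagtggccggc
COL18A1: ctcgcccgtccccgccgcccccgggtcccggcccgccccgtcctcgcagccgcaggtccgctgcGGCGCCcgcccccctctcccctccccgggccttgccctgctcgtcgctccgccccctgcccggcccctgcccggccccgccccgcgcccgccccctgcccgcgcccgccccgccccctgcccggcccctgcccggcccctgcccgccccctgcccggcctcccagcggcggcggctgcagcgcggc
COL5A1: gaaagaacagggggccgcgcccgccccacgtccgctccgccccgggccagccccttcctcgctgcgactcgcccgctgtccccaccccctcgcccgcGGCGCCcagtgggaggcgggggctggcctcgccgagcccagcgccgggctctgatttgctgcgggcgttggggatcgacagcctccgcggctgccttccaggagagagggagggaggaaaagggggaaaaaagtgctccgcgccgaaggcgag
COL4A5: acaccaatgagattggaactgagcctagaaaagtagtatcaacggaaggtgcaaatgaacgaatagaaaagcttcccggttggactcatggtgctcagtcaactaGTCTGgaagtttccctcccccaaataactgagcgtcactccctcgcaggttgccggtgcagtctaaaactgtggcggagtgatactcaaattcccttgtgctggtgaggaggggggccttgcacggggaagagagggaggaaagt

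These promoter windows are chr9:114155287-114155536 (plus strand) for COL27A1, chr3:48595330-48595579 (minus strand) for COL7A1 and chr1:31704018-31704267 (minus strand) for COL16A1. Those of COL18A1, COL5A1 and COL4A5, all on the plus strand, are chr21:45404915-45405164, chr9:134641553-134641802 and chrX:108439588-108439837. At COL27A1 the gained SMAD3 region chr9:114155437-114157082 ran from -100 to 1545 bp relative to the start, with 1534 and 1460 bp with TGF-beta and 0 with vehicle. It took in 100 and 85 of the 250 bases with TGF-beta, against 0 and 0 with vehicle. By the authors' own scores the peaks there ranked within the top 36.1% and 40.8% of the TGF-beta libraries, so they were not among the strongest. The sequence held none of the motifs searched, which says only that these letters are not in this window.

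At COL7A1 the region chr3:48594207-48597792 over the start held 3180 and 3390 bp of SMAD3 with TGF-beta, against 586 and 1176 bp with vehicle. With TGF-beta all 250 bases lay in peaks in both libraries, against 0 and 36 bases with vehicle. Its peaks were among the top 5.17% and 9.93% of the TGF-beta libraries. The GTCTG lies from -97 to -93 relative to the start. At COL16A1 the region chr1:31703583-31704843 held 1261 and 1127 bp with TGF-beta, against 338 and 399 bp with vehicle, and took in 250 and 250 bases with TGF-beta, against 145 and 178 with vehicle. Its CAGAC lies from -179 to -175, and 4 short gained regions lie within a few kb of it, 3 of them between 1944 and 3173 bp after the start. At COL18A1 the region chr21:45404248-45406310 held 1973 and 1749 bp with TGF-beta, against 758 and 1049 bp with vehicle, and took in 250 and 250 bases with TGF-beta, against 143 and 103 with vehicle. Its GGCGCC lies from -186 to -181.

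At COL5A1 the region chr9:134641675-134643251 held 1232 and 1350 bp with TGF-beta, against 251 and 319 bp with vehicle. Just upstream, chr9:134641199-134641601 held 205 and 348 bp with TGF-beta, against 238 and 244 bp with vehicle, and these overlapped. Of the 250 bases, 124 and 128 lay in peaks with TGF-beta, against 88 and 152 with vehicle, so the added length lay after the start. The GGCGCC lies from -153 to -148. H3K9ac over the start of COL5A1 (chr9:134641767-134644334) held 2495 and 2567 bp with TGF-beta, against 2255 and 2263 bp with vehicle, and over that of COL18A1 (chr21:45405129-45406417) 1245 and 1289 bp with TGF-beta, against 1219 and 1278 bp with vehicle. At COL27A1 the H3K27ac region chr9:114155511-114157867 held 2082 and 2355 bp with TGF-beta, against 229 and 315 bp with vehicle.

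**Figure D3:**
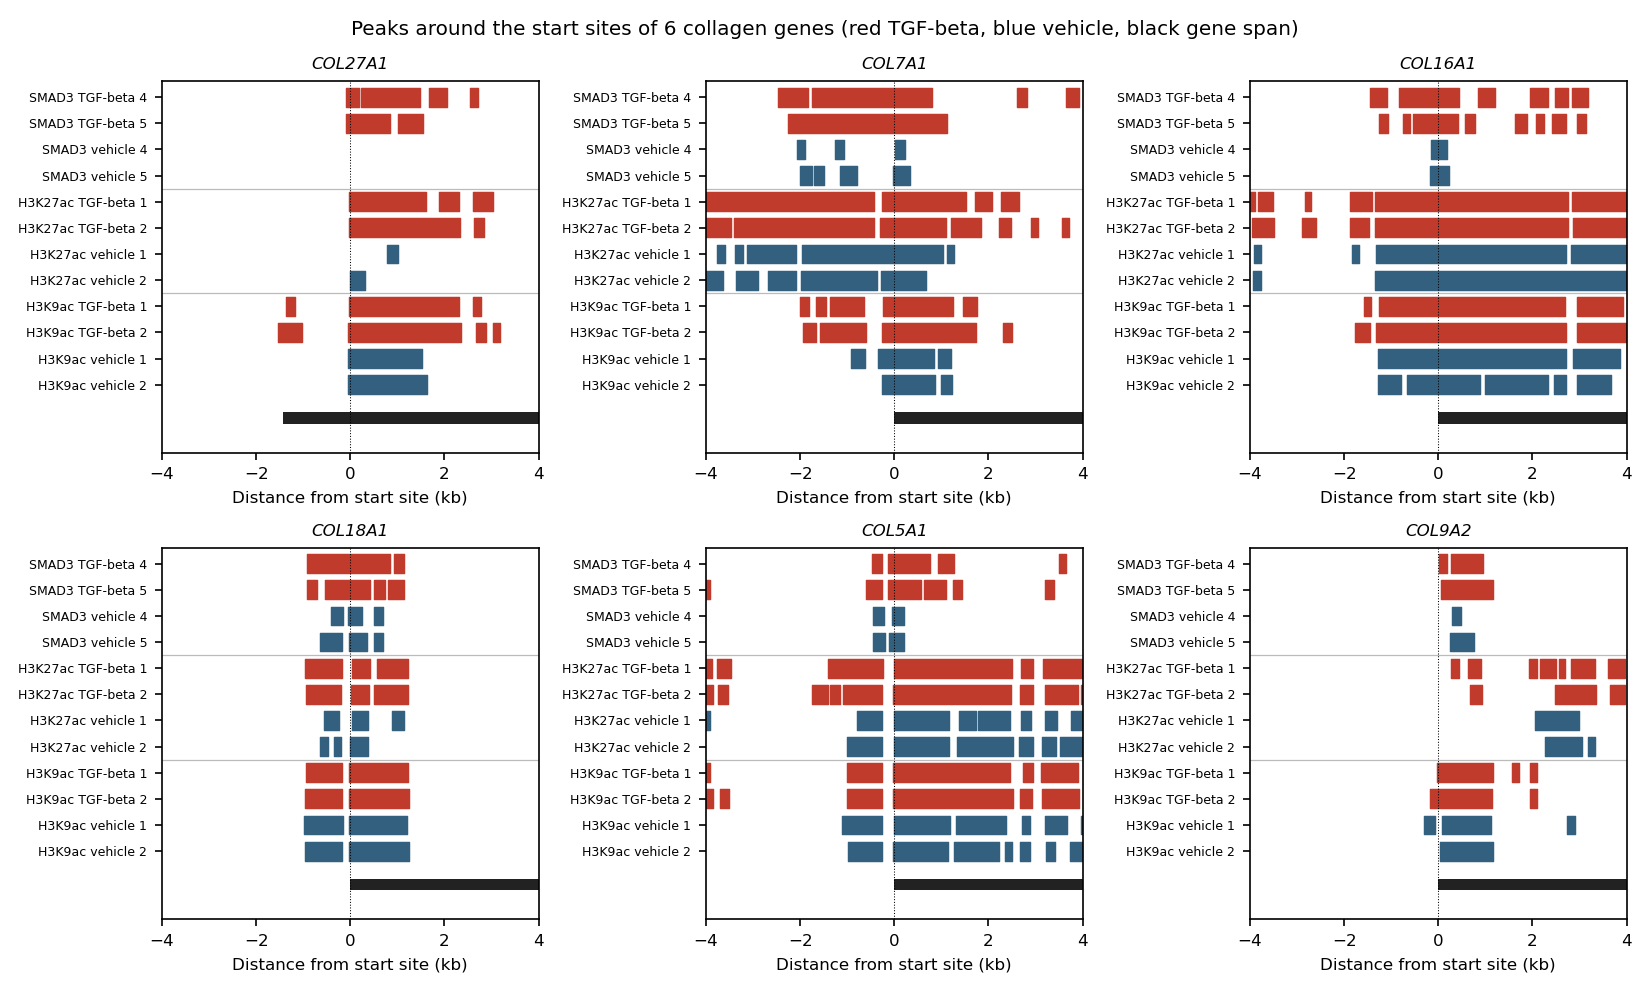
Peaks of every library (bars; red TGF-beta, blue vehicle) within 4 kb of the start sites of COL27A1, COL7A1, COL16A1, COL18A1, COL5A1 and COL9A2, oriented along the gene, with the gene span in black. SMAD3 bars are present at COL27A1 with TGF-beta alone, and at COL7A1, COL16A1 and COL18A1 they are longer with TGF-beta than with vehicle; H3K27ac at COL27A1 changes in the same way.

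Motifs were counted on both strands in the 250 bases before the start, for the 30 collagen genes in the RefSeq table. CAGAC was found in 11 of 30, 36.7%, beside 36.7% of 15813 protein-coding promoters. GGCGCC was found in 8 of 30, 26.7%, beside 21.3%. TGANTCA, the AP-1 motif, was found in 0 of 30, beside 5.05%. None of the motifs overlaps another in the sequences shown. COL4A5 and COL4A6 share 1 CAGAC site, from -145 to -141 of COL4A5 and from -239 to -235 of COL4A6. A match is a description of letters and not a binding site.

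Of the fibrillar chains, COL27A1 stood out. The gene, at chr9:114154098-114312511, encodes a fibrillar collagen known from cartilage. SMAD3 peaks covered 2.09 and 1.62 kb in TGF-beta replicates 4 and 5, against 0 in both vehicle libraries, and all of it lay inside the gene. The log2 change of 1.91 ± 0.150 (SE, n = 2 each, limma adjusted p = 0.000167) rests on the added 500 bp, since vehicle was at 0: it was 3.87 with 100 bp and 0.77 with 2000 bp. H3K27ac covered 7.10 and 7.59 kb in TGF-beta replicates 1 and 2, against 1.45 and 2.13 kb with vehicle, a gap several times the spread between replicates. Its log2 change was 1.70 ± 0.126 (limma adjusted p = 0.000283), and 1.64 within lane 7. H3K9ac covered 3.60 and 4.82 kb with TGF-beta, against 2.23 and 1.81 kb with vehicle, again with no overlap. It rose by 0.99 ± 0.103 (limma adjusted p = 0.00165), and by 0.86 within lane 7. In the window of 1 kb around the start site the H3K9ac change was 0.03 (adjusted p = 0.765), and that of H3K27ac was 0.97 (adjusted p = 0.0184).

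The type V chains COL5A1 and COL5A2, which are built into type I fibrils and limit their width, moved in different targets. For COL5A1 (chr9:134641803-134844843), SMAD3 covered 1.83 and 2.17 kb with TGF-beta, against 0.489 and 0.563 kb with vehicle, without overlap. That was a log2 change of 0.96 ± 0.127 (limma adjusted p = 0.00181), or 0.49 with 2000 bp added and 0.61 within 1 kb of the start. With equal peak numbers it was 0.58 (adjusted p = 0.0565). COL5A1 H3K27ac was 11.3 and 12.8 kb with TGF-beta, against 8.37 and 11.8 kb with vehicle, and overlapped; H3K9ac was 5.01 and 5.71 kb with TGF-beta, against 4.94 and 3.67 kb with vehicle (log2 change 0.39 ± 0.102, adjusted p = 0.0577). COL5A2 (chr2:189031898-189441111), which lies 19.2 kb from COL3A1, had 19.1 kb of H3K27ac in each TGF-beta library, against 11.98 and 11.11 kb with vehicle. It rose by 0.62 ± 0.0875 (limma adjusted p = 0.00319), and 6 H3K27ac regions of its window were gained. The window also reaches into WDR75. Inside the COL5A2 span H3K27ac was 17.97 and 18.09 kb with TGF-beta, against 11.03 and 10.04 kb with vehicle. SMAD3 at COL5A2 was 2.20 and 1.98 kb with TGF-beta, against 1.26 and 1.31 kb with vehicle, and did not pass (log2 change 0.21, adjusted p = 0.294).

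Among the other fibrillar chains, H3K27ac fell in the windows of COL2A1 and COL24A1. COL2A1, the main collagen of cartilage, had 0.524 and 0.621 kb of H3K27ac in its window with TGF-beta, against 0.987 and 1.05 kb with vehicle (log2 change -0.59 ± 0.0853, limma adjusted p = 0.00338). None of that length lay in the span of COL2A1, and the window also holds TMEM106C. With 50 kb on each side the change was -0.23 (adjusted p = 0.0593). COL24A1, a fibrillar chain known from bone, had 1.02 and 1.21 kb of H3K27ac with TGF-beta, against 1.29 and 1.52 kb with vehicle, all inside the gene. It fell by 0.33 on the log2 scale (limma adjusted p = 0.0459), and its change was -0.08 with 50 kb on each side (adjusted p = 0.525). The adjusted p was 0.221, 0.0623 and 0.139 without TGF-beta replicate 1, vehicle replicate 1 and vehicle replicate 2. COL11A2, a type XI chain of cartilage, passed in no target over the window with 10 kb on each side. Its SMAD3 length was 2.62 and 2.68 kb with TGF-beta, against 1.38 and 1.58 kb with vehicle (log2 change 0.35, adjusted p = 0.0896), in a window that also holds RXRB and SLC39A7. With 2.5 kb on each side this change was 0.65 (adjusted p = 0.0144), within 1 kb of the start it was 0.60 (adjusted p = 0.0181), and without centring it was 0.67 (adjusted p = 0.0312). The region over the start, chr6:33192916-33193746, held 800 and 788 bp with TGF-beta, against 306 and 288 bp with vehicle. Of the 250 bases before the start, 196 and 227 lay in SMAD3 peaks with TGF-beta, against 0 and 0 with vehicle, and the span of RXRB overlaps that stretch.

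The network-forming type IV chains outside the main pair sit head to head in 2 loci, each with a shared promoter region. COL4A3 and COL4A4, chains of the basement membrane of the kidney glomerulus, have spans 135 bp apart, at chr2:227164624-227314792 and chr2:226967360-227164488. For COL4A3, H3K27ac covered 13.1 and 14.2 kb with TGF-beta, against 5.32 and 5.22 kb with vehicle. This was far outside the spread between replicates (log2 change 1.21 ± 0.0874, limma adjusted p = 0.000265). COL4A4 had 9.01 and 9.49 kb of H3K27ac with TGF-beta, against 5.83 and 6.32 kb with vehicle (log2 change 0.48 ± 0.0782, adjusted p = 0.00546). Part of both values is the same peaks, since each window reaches into its neighbour. Inside the spans alone COL4A3 had 8.96 and 9.75 kb with TGF-beta, against 2.12 and 2.06 kb with vehicle.

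Most of the added H3K27ac of COL4A3 lay within the gene, away from its start. The region over the start site, chr2:227163045-227165464, held 2368 and 2293 bp of peaks with TGF-beta, against 2000 and 2120 bp with vehicle. About 50 kb into the gene, chr2:227213029-227214871 held 1595 and 1798 bp with TGF-beta, against 167 and 238 bp with vehicle. Next to it, chr2:227215029-227216208 held 1117 and 1149 bp with TGF-beta and none with vehicle. Likewise chr2:227218855-227220872 held 1799 and 2018 bp with TGF-beta, against 185 and 225 bp with vehicle, and chr2:227226982-227229246 held 2077 and 2218 bp with TGF-beta, against 523 and 379 bp with vehicle. In the last of these regions both TGF-beta SMAD3 libraries also had 2 short peaks, at chr2:227228083-227228317 and chr2:227228512-227228736, that neither vehicle library had. Within 1 kb of the start site the H3K27ac change of COL4A3 was -0.02 (adjusted p = 0.846), the opposite sign. All 250 bases before the start lay in H3K27ac peaks in all 4 libraries, so the length there had limited room to rise.

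H3K9ac at the same pair was 4.28 and 5.87 kb for COL4A3 with TGF-beta, against 3.92 and 3.01 kb with vehicle (log2 change 0.58, limma adjusted p = 0.0259). For COL4A4 it was 4.25 and 4.53 kb with TGF-beta, against 3.88 and 3.61 kb with vehicle (log2 change 0.30, adjusted p = 0.0476). Neither pair of values overlapped, yet COL4A3 had an adjusted p of 0.0545 without TGF-beta replicate 2, the library of lane 8. COL4A4 did not pass when any 1 library was left out (adjusted p 0.0834 to 0.223). SMAD3 did not pass at COL4A3 (1.56 and 2.26 kb with TGF-beta, against 0.949 and 1.03 kb with vehicle, adjusted p = 0.158) or at COL4A4 (1.40 and 1.75 kb with TGF-beta, against 0.949 and 1.03 kb with vehicle, adjusted p = 0.451). The vehicle values are equal because both windows held the same vehicle peaks. With vehicle, 0.294 and 0.272 kb of that length lay in the COL4A3 span and 0.574 and 0.689 kb in the COL4A4 span.

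COL4A5 and COL4A6, type IV chains on the X chromosome whose spans are 379 bp apart, shared 1 SMAD3 region at chrX:108439789-108440225. It held 421 and 371 bp with TGF-beta and none with vehicle, too short for the test. It runs from -49 to 387 bp relative to the start of COL4A5, as the map of both type IV loci shows. H3K27ac was 1.43 and 1.59 kb at COL4A5 with TGF-beta, against 1.54 and 1.46 kb with vehicle, and 4.48 and 5.35 kb at COL4A6 with TGF-beta, against 3.89 and 3.66 kb with vehicle; neither passed (adjusted p = 0.556 and 0.150). H3K9ac was 1.77 and 2.11 kb at COL4A5 with TGF-beta, against 2.27 and 2.15 kb with vehicle (adjusted p = 0.692). At COL4A6 it was 1.94 and 2.56 kb with TGF-beta, against 2.98 and 2.48 kb with vehicle (adjusted p = 0.409). A short H3K9ac region between the genes, chrX:108439535-108439735, was called with vehicle only.

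**Figure D4:**
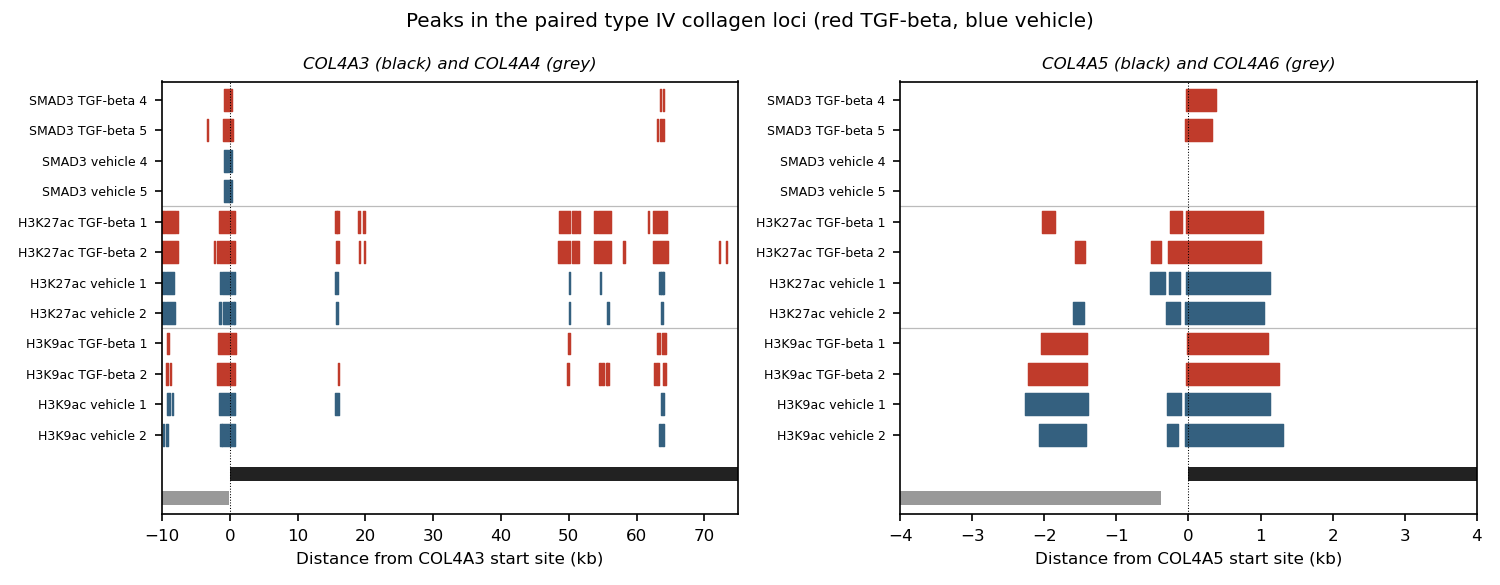
Peaks of every library (bars; red TGF-beta, blue vehicle) at the 2 paired type IV loci against distance in kb from the start of COL4A3 (left) and of COL4A5 (right), with the gene span in black and its neighbour in grey below. The H3K27ac blocks near 50 to 65 kb in COL4A3 are long with TGF-beta and short with vehicle, while the block at the start holds 2000 to 2368 bp in all 4 libraries; at COL4A5 SMAD3 bars are present with TGF-beta alone.

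Among the other network collagens, COL10A1 (chr6:116118909-116217144), the collagen of hypertrophic cartilage, had 2.77 and 3.77 kb of H3K27ac with TGF-beta, against 0.352 and 0.238 kb with vehicle. The log2 change was 2.15 ± 0.158 (limma adjusted p = 0.000275) and 1.94 within lane 7; the vehicle values alone would not have reached the filter. With 50 kb on each side it was 1.008, and with 2000 bp added 1.13. The gene lies wholly inside the span of NT5DC1, so the signal cannot be given to 1 gene. The longest regions lay from 5115 to 6971 bp after the start, where chr6:116211362-116212029 held 599 and 668 bp with TGF-beta and none with vehicle. A SMAD3 region, chr6:116210965-116211314, lay in the same stretch, with 261 and 350 bp with TGF-beta and none with vehicle. COL8A1 and COL8A2, the short-chain collagens of vessel walls and of the corneal Descemet's membrane, passed in no target. COL8A1 had 21.3 and 20.5 kb of H3K27ac with TGF-beta, against 18.1 and 17.3 kb with vehicle (log2 change 0.15, adjusted p = 0.237).

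The beaded-filament (type VI) genes gave 1 call. COL6A3, whose chain carries the C-terminal fragment endotrophin, had 2.25 and 1.98 kb of H3K27ac with TGF-beta, against 1.28 and 1.05 kb with vehicle. It rose by 0.56 ± 0.109 (limma adjusted p = 0.0108), but only 0.248 and 0.146 kb with TGF-beta, against 0 with vehicle, lay in the gene span, and the rest in the flanks. COL6A1, a core chain of these filaments, passed in no target, and its H3K27ac was 3.37 and 3.32 kb with TGF-beta, against 2.996 and 3.348 kb with vehicle, with overlap (log2 change -0.02 ± 0.0743). COL6A2, its neighbour 93.1 kb away, had a single H3K9ac length of 0.487 kb, in TGF-beta replicate 2, and no other peak.

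COL7A1, the only chain of the anchoring fibrils that fasten epithelial basement membranes, lies at chr3:48564073-48595329 and rose in all 3 targets. SMAD3 covered 5.80 and 5.27 kb with TGF-beta, against 1.30 and 2.08 kb with vehicle (log2 change 1.17 ± 0.144, limma adjusted p = 0.00128). H3K27ac covered 17.0 and 15.7 kb with TGF-beta, against 9.90 and 10.4 kb with vehicle (log2 change 0.57 ± 0.0753, adjusted p = 0.00230; 0.61 within lane 7). H3K9ac covered 7.29 and 8.44 kb with TGF-beta, against 6.07 and 4.49 kb with vehicle (log2 change 0.64 ± 0.106, adjusted p = 0.0112; 0.60 within lane 7). No target's ranges overlapped. The window also holds PFKFB4, UCN2 and UQCRC1, and with 50 kb on each side the change was 0.63 in SMAD3, 0.35 in H3K27ac and 0.34 in H3K9ac, all past the threshold. Without centring, the H3K9ac change was 0.54 with an adjusted p of 0.101. Within 1 kb of the start site H3K27ac changed by 0.02 (adjusted p = 0.951) and H3K9ac by 0.24 (adjusted p = 0.377). All 250 bases before the start lay in H3K27ac peaks in all 4 libraries, which limits a rise there. Inside the gene span SMAD3 was 1.495 and 1.436 kb with TGF-beta, against 0.223 and 0.337 kb with vehicle. H3K27ac in the span was 6.149 and 5.890 kb with TGF-beta, against 4.205 and 3.738 kb with vehicle. H3K9ac in the span was 2.765 and 3.632 kb with TGF-beta, against 2.083 and 1.880 kb with vehicle. The larger part of each window length with TGF-beta thus lay in the flanks.

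Of the 10 FACIT collagens, COL16A1 and COL20A1 rose in SMAD3, COL9A2, COL16A1 and COL21A1 rose in H3K27ac, and COL9A3 and COL12A1 fell in H3K27ac. COL16A1 (chr1:31652263-31704017), a fibril-associated chain of skin and muscle matrix, had 4.80 and 3.68 kb of SMAD3 with TGF-beta, against 0.850 and 1.13 kb with vehicle (log2 change 1.35 ± 0.150, limma adjusted p = 0.000776). With equal peak numbers it was 0.84. H3K27ac at COL16A1 was 25.3 kb in each TGF-beta library, against 18.9 and 20.6 kb with vehicle. The log2 change of 0.26 (adjusted p = 0.0420) did not pass without any 1 of the libraries (adjusted p 0.0747 to 0.190), and it was -0.02 within 1 kb of the start site. All 250 bases before that start lay in H3K27ac peaks in all 4 libraries, which limits a rise there. H3K9ac at COL16A1 was 11.6 and 13.2 kb with TGF-beta, against 13.4 and 11.4 kb with vehicle, and overlapped. The window of COL16A1 also reaches into PEF1. Inside the COL16A1 span SMAD3 was 2.84 and 1.74 kb with TGF-beta, against 0.193 and 0.221 kb with vehicle. H3K27ac in that span was 18.1 and 18.3 kb with TGF-beta, against 13.8 and 15.7 kb with vehicle. COL21A1, a FACIT chain of vessel walls, had 2.57 and 2.48 kb of H3K27ac with TGF-beta, against 1.13 and 1.49 kb with vehicle, all in its span (log2 change 0.66 ± 0.0937, adjusted p = 0.00316). A gained region, chr6:56370815-56371969, made up 1070 and 1080 bp of the TGF-beta values. It lies upstream of the RefSeq start of the gene but inside its span.

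The type IX genes, whose chains decorate cartilage fibrils, moved in opposite directions in H3K27ac. COL9A2 had 2.001 and 1.462 kb of H3K27ac with TGF-beta, against 0.932 and 0.931 kb with vehicle (log2 change 0.54 ± 0.115, limma adjusted p = 0.0153). Its SMAD3 length, 0.861 and 1.105 kb with TGF-beta, against 0.188 and 0.514 kb with vehicle, did not pass (log2 change 0.50, adjusted p = 0.0662). The limma adjusted p of this SMAD3 change was 0.0382 with the replicate block and 0.196 with equal peak numbers. For H3K27ac, without TGF-beta replicate 1 the adjusted p was 0.0526, with only peaks scoring at least 5 it was 0.465, and with equal peak numbers it was 0.135. COL9A3 (chr20:62816213-62841159) had 3.26 and 1.87 kb of H3K27ac with TGF-beta, against 4.35 and 5.44 kb with vehicle (log2 change -0.93 ± 0.197, adjusted p = 0.0152). The change was -0.62 within lane 7, the adjusted p was 0.0509 without vehicle replicate 2, and with 50 kb on each side the change was -0.13 (adjusted p = 0.312). H3K9ac at COL9A3 was 3.62 and 4.69 kb with TGF-beta, against 7.18 and 6.47 kb with vehicle (log2 change -0.57 ± 0.0901, adjusted p = 0.00905), and -0.13 with 50 kb on each side. Both marks were lower with TGF-beta inside the span as well as over the whole window, which also holds OGFR and TCFL5. SMAD3 inside the span was 0 and 0.390 kb with TGF-beta and 0 in both vehicle libraries, so nearly all SMAD3 length lay in the flanks. In the whole window SMAD3 was 1.89 and 2.69 kb with TGF-beta, against 0.240 and 1.20 kb with vehicle. It did not pass (log2 change 0.98 ± 0.280, limma adjusted p = 0.0542). This SMAD3 change had a limma adjusted p of 0.0035 with the replicate block and 0.599 with equal peak numbers. It had an adjusted p of 0.000632 without TGF-beta replicate 4, 0.0112 without TGF-beta replicate 5 and 0.00589 without vehicle replicate 5, but without vehicle replicate 4 the change was 0.48 (adjusted p = 0.217). At chr20:62815717-62816133 SMAD3 was gained (392 and 417 bp with TGF-beta, 0 with vehicle) where H3K9ac was lost (0 with TGF-beta, 353 and 335 bp with vehicle).

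COL20A1 (chr20:63293186-63334806), a little-studied FACIT chain, was tested in SMAD3 only through its TGF-beta libraries, so that it had to differ. SMAD3 covered 6.50 and 3.18 kb with TGF-beta, against 0 and 0.422 kb with vehicle (log2 change 2.58 ± 0.307, limma adjusted p = 0.00112). With equal peak numbers the change was 2.15 (adjusted p = 0.0694), with 100 bp added it was 3.94 and with 2000 bp 1.42. Only 0.587 and 0.0790 kb with TGF-beta, and 0 with vehicle, lay in the gene span. The rest lay below it, over the end of ARFGAP1 and the stretch between both genes. The window held 5 gained regions, of which 1 reached into the span, and 4 others, among them chr20:63290044-63290650 with 500 and 235 bp with TGF-beta, against 0 and 422 bp with vehicle. No acetylation peak was found in the window in any of the 8 mark libraries. COL12A1, a FACIT chain of tendon and stroma, had 6.57 and 5.75 kb of H3K27ac with TGF-beta, against 6.99 and 7.37 kb with vehicle. It fell by 0.29 on the log2 scale (adjusted p = 0.0405), did not pass without any 1 library (adjusted p 0.0553 to 0.217), and was 0.02 within 1 kb of the start. COL14A1 had H3K9ac peaks alone, of 0.181 and 0.142 kb with TGF-beta and 0 with vehicle, and COL22A1 a single H3K27ac length of 0.183 kb, in TGF-beta replicate 2.

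The multiplexins, basement-membrane collagens of which type XVIII gives rise to endostatin, both rose in H3K27ac. COL15A1 (chr9:98943907-99070787) had 4.27 and 4.65 kb with TGF-beta, against 0.558 and 0.977 kb with vehicle (log2 change 1.90 ± 0.140, limma adjusted p = 0.000277; 1.83 within lane 7). All of it lay inside the gene, and 6 regions between chr9:99020759 and chr9:99041843 were found with TGF-beta in each library and with vehicle in none. The longest, chr9:99040051-99041299, held 1032 and 1249 bp with TGF-beta and 0 with vehicle, and an H3K9ac region of 200 and 217 bp with TGF-beta and 0 with vehicle lay in it. No SMAD3 peak was found at COL15A1 in any library. COL18A1 (chr21:45405165-45513720) had 12.3 and 11.6 kb of H3K27ac with TGF-beta, against 6.62 and 5.75 kb with vehicle (log2 change 0.81 ± 0.103, adjusted p = 0.00207), and 0.36 with 50 kb on each side. SMAD3 at COL18A1 was 4.19 and 2.73 kb with TGF-beta, against 0.758 and 1.05 kb with vehicle (log2 change 1.16 ± 0.184, adjusted p = 0.00427), a change of 0.48 within 1 kb of the start and 0.72 with 2000 bp added. H3K9ac was 6.02 and 6.83 kb with TGF-beta, against 5.80 and 6.26 kb with vehicle, and overlapped. The span of SLC19A1 overlaps the end of the COL18A1 span, so peaks in that stretch cannot be given to 1 gene. Inside the COL18A1 span SMAD3 was 3.28 and 1.98 kb with TGF-beta, against 0.448 and 0.553 kb with vehicle.

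**Figure D5:**
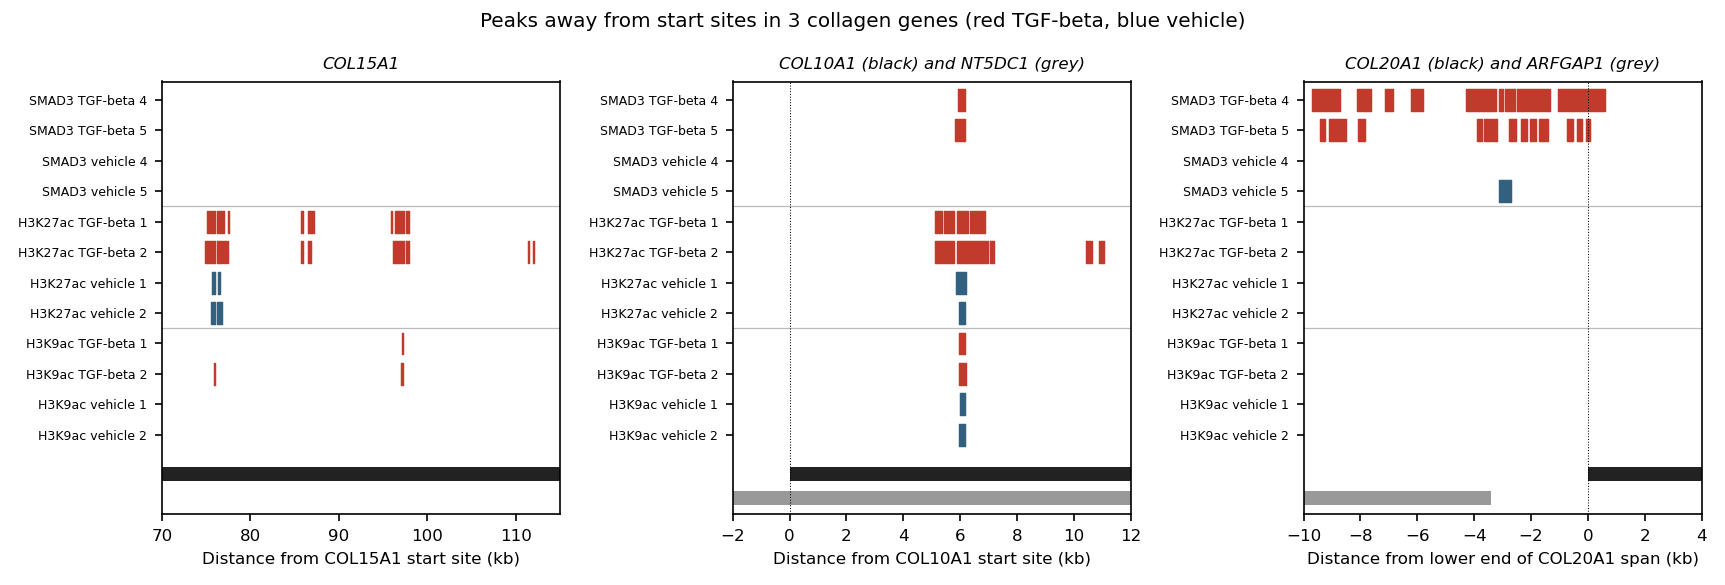
Peaks of every library (bars; red TGF-beta, blue vehicle) in COL15A1 and COL10A1 against distance in kb from the start site, and in COL20A1 against distance from the lower end of its span, with the gene in black and its neighbour in grey below. COL15A1 has H3K27ac without SMAD3, COL10A1 has both near 6 kb, and COL20A1 has SMAD3 without acetylation, mostly outside its span.

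Of the transmembrane collagens, COL13A1, a chain of cell adhesion sites and the neuromuscular junction, had 1.61 and 1.78 kb of H3K27ac with TGF-beta, against 1.03 and 0.722 kb with vehicle. It rose by 0.59 ± 0.137 (limma adjusted p = 0.0213) with both TGF-beta libraries above both vehicle libraries. Within lane 7 it was 0.52 with an adjusted p of 0.0812, and without vehicle replicate 2 it was 0.39. With equal peak numbers the adjusted p was 0.0583. COL17A1, the collagen of epithelial hemidesmosomes, had H3K27ac peaks of 0.321 and 0.423 kb with TGF-beta and none with vehicle, too short for the test, and no other peak. All of that length lay in the flank upstream of the start, and none in the span. COL23A1 passed in no target and had nearly all of its peaks in the flank with PHYKPL. COL28A1, whose chain has the von Willebrand factor A domains also found in type VI chains, had 7.16 and 6.13 kb of H3K27ac with TGF-beta, against 3.86 and 4.81 kb with vehicle. It rose by 0.48 ± 0.104 (adjusted p = 0.0168), with an adjusted p of 0.0782 without TGF-beta replicate 1 and 0.0562 without vehicle replicate 1. A SMAD3 region inside COL28A1 held 0.313 and 0.263 kb with TGF-beta and 0 with vehicle. COL26A1 passed in no target, with H3K27ac of 0.904 and 1.72 kb with TGF-beta, against 1.22 and 0.761 kb with vehicle.

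Whether the acetylation marks changed unequally was asked with the treatment by mark term, H3K27ac change minus H3K9ac change, in the 24 genes tested in both. The change was larger in H3K27ac in 3 of 24, beside 5.62% of all genes tested in both marks, and smaller in 0, beside 1.93%; 7 had an unadjusted p under 0.05. They were COL18A1 (0.63 ± 0.144, limma adjusted p = 0.0267), COL27A1 (0.72 ± 0.177, adjusted p = 0.0379) and COL4A3 (0.63 ± 0.161, adjusted p = 0.0435). COL13A1 did not pass (0.70 ± 0.197, adjusted p = 0.0633). With 100 bp added in place of 500 bp none of the 3 passed (adjusted p = 0.0577, 0.0813 and 0.0919), and leaving out 1 library left 0 to 3 genes. TGF-beta replicate 2 came from lane 8 in both marks, and each of these fits left out 1 library alone. This term therefore has no value within 1 lane.

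Genes of the collagen pathway were read in the same way. Of the 5 collagens left out above, the 3 tested in SMAD3 all rose, and so did the 4 tested in each mark, beside 11.2% of all genes in SMAD3, 14.8% in H3K27ac and 4.25% in H3K9ac; COL3A1 was at 0 in all 12 libraries. Their median log2 change was 1.60 in SMAD3, 1.04 in H3K27ac and 0.71 in H3K9ac, against -0.03, -0.03 and 0.00 over all tested genes. COL1A2 was tested in H3K27ac only through its TGF-beta libraries, with 0.498 and 0.483 kb with vehicle. COL4A2, the type IV chain divergent from COL4A1, had 6.92 and 5.05 kb of SMAD3 with TGF-beta, against 0.828 and 1.65 kb with vehicle (log2 change 1.60, limma adjusted p = 0.00128). COL4A1 had the same SMAD3 lengths with vehicle, 0.828 and 1.65 kb, so the 3 rises in SMAD3 are not 3 separate loci. Of the enzymes and chaperones that modify collagen chains, 5 of 16 tested rose in SMAD3 (11.2% of all tested genes did), 5 of 17 in H3K27ac (14.8% of all) and 2 of 18 in H3K9ac (4.25% of all), and 0 fell, with medians of 0.22 in SMAD3, 0.06 in H3K27ac and -0.01 in H3K9ac. P4HA2, a prolyl hydroxylase subunit that stabilises the triple helix, was among them in all 3 targets (log2 changes 0.78, 0.77 and 0.67). P4HA3, another such subunit, had 4.20 and 4.61 kb of H3K27ac with TGF-beta, against 0 in both vehicle libraries. It was tested in both marks only through its TGF-beta libraries, so that it had to differ.

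Of the 13 genes for procollagen processing and crosslinking, 3 of 7 tested rose in SMAD3, beside the same 11.2% of all genes, 5 of 10 in H3K27ac, beside 14.8%, and 3 of 12 in H3K9ac, beside 4.25%, and 0 fell, with medians of 0.21 in SMAD3, 0.23 in H3K27ac and 0.13 in H3K9ac. BMP1, the protease that trims the C-propeptide, had 13.6 and 9.11 kb of SMAD3 with TGF-beta, against 0.971 and 1.05 kb with vehicle (log2 change 2.62, limma adjusted p = 0.000118). LOX, a crosslinking oxidase, had 1.32 and 1.46 kb of SMAD3 with TGF-beta and 0 with vehicle. It was tested in SMAD3 only through its TGF-beta libraries, so that it had to differ. LOXL1, of the same enzyme family, rose in all 3 targets (0.99 in SMAD3, 0.51 in H3K27ac and 0.92 in H3K9ac). Of the 11 collagen receptors, 1 of 8 tested rose in SMAD3, a share near the 11.2% of all genes. In H3K27ac 4 of 9 rose, beside 14.8%, and 1 fell, near the share of 11.7%, and in H3K9ac 2 of 9 rose, beside 4.25%, with medians of 0.11 in SMAD3, 0.15 in H3K27ac and 0.05 in H3K9ac. ITGB1, the beta chain shared by the collagen-binding integrins, had 6.49 and 4.71 kb of SMAD3 with TGF-beta, against 1.10 and 1.49 kb with vehicle (log2 change 1.44, adjusted p = 0.000913). ITGA11, the alpha chain of a fibroblast integrin for fibrillar collagen, had 7.39 and 7.10 kb of H3K27ac with TGF-beta, against 0.624 and 0.826 kb with vehicle (log2 change 2.58, adjusted p = 2.22e-05). ITGA10 fell by 0.51 on the log2 scale (adjusted p = 0.00599).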

How the data were processed

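SMAD3, H3K27ac and H3K9ac were profiled in 12 libraries, 2 per target and treatment. Crosslinking lasted 10 min in 1% formaldehyde, and reads were 51-base pairs, per the labels' protocols. Per the submitters' processing notes, BWA, Picard, MACS2 and bedtools were used with hg38 (not given in the sources used here: versions, cutoffs, and whether scores come from p or q). The values the authors deposited are 1 list of peaks per library, each peak with a score on the −log10 scale. Lanes are per the file headers. The score was used only for 2 alternatives (a minimum of 5, and equal peak numbers in all libraries) and to rank peaks within a library.

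Chromosomes 1 to 22 and X were kept. Per gene (RefSeq GRCh38 spans, 19974 protein-coding genes, all 39 members matched), the covered length in the span with 10 kb on each side was taken as log2 of the length plus 500 bp. Genes whose mean reached 500 bp were kept, and each library was centred on the median over those covered in all 4 libraries. Treatment, and the treatment by mark term, were tested in limma 3.58.1 (R 4.3.3) and adjusted over all tested genes after Benjamini and Hochberg, after a check on simulated data. With 2 libraries against 2, the smallest p of an exact permutation test on 1 gene is 0.333. Read depth is unknown, and longer peaks in a deeper library cannot be told apart from more binding.

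Members, lists and tests were chosen with earlier results of these data known. Values per library were given for members that passed in at least 1 target and for those sharing a window with another member, with ranges or single values for the rest, and for up to 3 called genes per pathway list and target. Alternatives were other pseudocounts, filters, centring, windows, peak thresholds, limma options, a replicate block and leaving out each library. A window of 1 kb around the start site and a crossed replicate block were added after seeing the data. Start sites and sequences came from the RefSeq promoter table; with no genome or exon annotation used here, exon or intron is not given. Other steps used Python 3.11.15, numpy 2.4.6, pandas 2.3.3, scipy 1.17.1 and matplotlib 3.10.9.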

Additional observations from a re-analysis of the deposited data

Results flagged for a closer look

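The change with TGF-beta differed between the acetylation marks in 3 collagen genes, by the treatment by mark term of limma. The difference, H3K27ac change minus H3K9ac change, was 0.72 for COL27A1 (log2 changes of 1.70 in H3K27ac and 0.99 in H3K9ac), 0.63 for COL4A3 (1.21 and 0.58) and 0.63 for COL18A1 (0.81 and 0.18). Both TGF-beta libraries were above both vehicle libraries in H3K27ac for all 3 and in H3K9ac for COL27A1 and COL4A3. Without TGF-beta replicate 2 of H3K27ac, the differences were 0.65, 0.55 and 0.66 for COL27A1, COL4A3 and COL18A1. TGF-beta replicate 2 of H3K9ac, also from lane 8, stayed in that fit, so these are not values within 1 lane. The part of read depth was not tested.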

How the results depend on the processing

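Of the values of single genes under the alternatives, 545 kept their direction and side of the threshold, 83 no longer passed, 28 newly passed and 4 changed sign. The sign changes all came within 1 kb of the start site: COL4A3 (-0.020), COL12A1 (0.020) and COL16A1 (-0.021) in H3K27ac, and COL4A3 in the mark term (-0.077). There 2 genes passed in H3K27ac, where 18 did in the whole window, and 0 in H3K9ac, where 5 did. Fewer peaks enter that window by construction, and a length in it cannot rise far where peaks already fill it with vehicle. With 50 kb on each side 10 genes passed in SMAD3 (9 higher and 1 lower, where 6 were higher with 10 kb), 8 in H3K9ac and 7 in the mark term (3 with 10 kb), and 34 SMAD3 and 93 H3K27ac regions were gained. With no filter 11 passed in SMAD3 (10 higher and 1 lower) and 6 in the mark term. In that SMAD3 fit COL5A1, COL16A1 and COL20A1 all had the same SE, 0.159. The spread between replicates of each gene thus did not enter its test, and this count is not comparable with the others. With 100 bp added 3 passed in H3K9ac and 0 in the mark term, and without centring 2 passed in H3K9ac. With equal peak numbers 4 genes passed higher and 1 lower in SMAD3, and 11 SMAD3 regions were gained and 1 lost. With at least 50% of a region covered 13 H3K27ac regions were lost, where 8 were. With 2000 bp added, changes of short lengths shrank, in H3K27ac to 1.17 for COL15A1, 0.39 for COL21A1, 0.32 for COL6A3, 0.30 for COL13A1, 0.28 for COL9A2 and -0.29 for COL2A1, and in SMAD3 to 0.88 for COL16A1, all still past the threshold. The causes were not tested. Leaving out 1 library left 6 to 8 genes in SMAD3, all higher, 13 to 15 in H3K27ac (11 to 13 higher, 1 to 3 lower), 3 to 7 in H3K9ac (2 to 6 higher, 1 to 3 lower) and 0 to 3 in the mark term, among which the 1 left without TGF-beta replicate 1 of H3K27ac had the smaller change in H3K27ac. It gave 21 to 52 gained and 0 to 2 lost SMAD3 regions, 68 to 122 gained and 11 to 28 lost H3K27ac regions, and 21 to 57 gained and 18 to 50 lost H3K9ac regions, since fewer libraries must agree. Same-numbered libraries did not deviate together (correlations -0.07 in SMAD3, -0.02 in H3K27ac and -0.14 in H3K9ac). With 2 libraries per group this cannot show whether the numbers pair them by design. With the replicate block 8 genes passed in SMAD3, 17 in H3K27ac, 5 in H3K9ac and 3 in the mark term, and with the crossed pairing 5 in H3K9ac. Without a depth, a peak missing from a library may lie just under the caller's cutoff.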
